A study of Mus musculus with 12 samples.

Results

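Macrophages grown from the bone marrow of C57BL/6 mice were measured for the RNA of the machinery that transcribes genes: the subunits of RNA polymerases I, II and III, the Mediator complex, the TBP-associated factors (TAFs) and the general transcription factors. Members were the genes whose symbol is Polr followed by a digit, Med followed by digits, Taf followed by a digit, or starts with Gtf2 or Gtf3, each represented by its brightest probe set on an Affymetrix whole-transcript array. The rule took 102 of the 19945 genes measured, and it used no measured difference. The 4 groups, with 3 arrays each, were HDAC3 -/- macrophages, labelled as knockout, and HDAC3 +/- macrophages, which are heterozygous and are labelled as wild type, each given LPS at 100 ng/ml for 4 h or left untreated. LPS (lipopolysaccharide) is a bacterial cell wall component that macrophages sense through Toll-like receptor 4. All cultures were on the 7th day of differentiation in medium conditioned by L929 fibroblasts, which secrete the growth factor CSF1 that macrophages need. Since the comparison cells carry 1 intact allele, no group here has both copies of Hdac3, and the sources used here do not say how the gene was deleted.

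RNA polymerase I makes the large ribosomal RNA, RNA polymerase II makes messenger RNA, and RNA polymerase III makes transfer RNA, 5S ribosomal RNA and other short RNAs. At a promoter of RNA polymerase II, TFIID (the TATA-binding protein with its TAFs) binds first, TFIIA, TFIIB, TFIIE, TFIIF and TFIIH follow, and Mediator passes signals from bound activators to the polymerase. SL1, which contains its own TAFs, does this for RNA polymerase I, while TFIIIA and TFIIIC bind genes of RNA polymerase III and place TFIIIB, which recruits that polymerase. HDAC3, a histone deacetylase, acts in the NCoR and SMRT corepressor complexes, and activated macrophages switch on large sets of inflammatory genes that need this machinery.

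Signals are log2 values per probe set after RMA normalization, so a difference of 1 is a 2-fold change, and levels of different genes are not set against each other because probes differ in brightness. Hdac3 itself had log2 signals of 6.91, 7.25 and 7.18 in HDAC3 -/- cells after LPS, against 8.90, 9.02 and 8.66 in HDAC3 +/- cells after LPS, a difference of -1.75 ± 0.153 (SE, limma adjusted p = 5.9e-06). All 9 macrophage markers were measured and averaged 11.05 to 11.51 per array, while T cell, B cell and erythroid markers averaged 3.58 to 5.23. Of 5 listed erythroid markers 2 were measured. Single macrophage markers differed more than their average. Fcgr1 had means of 9.41 after LPS and 9.25 untreated in HDAC3 -/- cells, and 11.82 and 10.69 in HDAC3 +/- cells. Mertk was lower after LPS, 6.58 against 9.20 in HDAC3 -/- cells and 6.89 against 8.90 in HDAC3 +/- cells. Cd14 was higher, 12.15 against 10.73 and 11.97 against 10.86. Fibroblast markers averaged 5.27 to 5.99 and the 6 neutrophil markers 4.40 to 5.57, where S100a8 differed most between groups (means of 9.23 and 7.07 in HDAC3 -/- cells after LPS and untreated, 7.27 and 5.03 in HDAC3 +/- cells) and Elane, Mpo, Ltf, Camp and Ly6g had group means of 3.36 to 5.31. Both replicate 1 arrays of the HDAC3 +/- groups carried a male pattern of sex-linked genes and the other 10 arrays a female one, and every member call that was lost without these 2 arrays is named with the results. The spread of all signals on an array (interquartile range) in the HDAC3 +/- cells given LPS was 3.49, 3.19 and 3.20, and it was 3.39 to 3.80 on the other 9 arrays. No label ties the 3 arrays of a group to separate animals, and p-values therefore measure the spread between these arrays only. In bulk RNA a change in the level per cell and a change in the share of a cell type cannot be told apart.

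Of the 102 members, 97 had a mean log2 signal of at least 5 over the 12 arrays. The 5 below it were Gtf2a1l, Med12l, Taf4b, Taf7l and Taf7l2, paralogues of other members. Promoter sequence was matched for 89 members, from RefSeq on GRCm38.p6, as the 250 bases before each annotated start. The promoters of 4 members are printed. Gtf2f1 and Med21 had the largest rises after LPS in HDAC3 +/- cells, Polr3g was the member most raised in HDAC3 -/- cells after LPS, and Med13l the most lowered. Capitals mark the E-box CACGTG, the ETS core CCGGAAG, the cAMP response element TGACGTCA, the TATA box TATAAA and the GC box GGGCGG, each searched on both strands, and none of the marked matches overlaps another. Gtf2f1 lies at chr17:57011289-57011538 on the minus strand, Med21 at chr6:146642329-146642578 on the plus strand, Polr3g at chr13:81711014-81711263 on the minus strand and Med13l at chr5:118560469-118560718 on the plus strand. All 4 are read 5′ to 3′ toward the start.
Gtf2f1: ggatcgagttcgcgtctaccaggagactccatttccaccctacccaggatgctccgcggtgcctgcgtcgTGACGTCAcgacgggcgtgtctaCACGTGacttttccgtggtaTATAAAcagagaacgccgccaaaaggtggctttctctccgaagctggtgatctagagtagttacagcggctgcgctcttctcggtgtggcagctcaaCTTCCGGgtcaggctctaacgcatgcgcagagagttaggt
Med21: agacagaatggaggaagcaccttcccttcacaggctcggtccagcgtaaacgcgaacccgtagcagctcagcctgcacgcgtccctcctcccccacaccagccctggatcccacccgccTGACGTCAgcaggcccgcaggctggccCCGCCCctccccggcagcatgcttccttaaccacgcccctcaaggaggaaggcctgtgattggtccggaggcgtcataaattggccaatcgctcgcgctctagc
Polr3g: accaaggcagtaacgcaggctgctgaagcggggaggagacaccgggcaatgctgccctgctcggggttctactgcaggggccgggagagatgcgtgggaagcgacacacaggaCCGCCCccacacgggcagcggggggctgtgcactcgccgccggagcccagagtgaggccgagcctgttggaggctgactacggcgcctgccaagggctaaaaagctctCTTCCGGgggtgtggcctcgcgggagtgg
Med13l: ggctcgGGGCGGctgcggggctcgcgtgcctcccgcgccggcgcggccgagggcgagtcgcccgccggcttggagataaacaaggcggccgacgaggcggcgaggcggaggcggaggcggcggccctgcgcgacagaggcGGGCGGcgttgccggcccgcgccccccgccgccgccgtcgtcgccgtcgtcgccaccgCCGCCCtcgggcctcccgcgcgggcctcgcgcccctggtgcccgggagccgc

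The cAMP response element lay 180 to 173 bases before the start in Gtf2f1 and 131 to 124 bases before it in Med21. It was found in 4 of the 105 promoters of the members (3.81%; Gtf2f1, Gtf3c1, Med21 and Taf11), against 1.55% of all 32851 promoters in the table. The ETS core, present 29 to 23 bases before the start of Polr3g and 40 to 34 bases before that of Gtf2f1, occurred in 23.8% of the members' promoters, against 6.91% of all. The E-box occurred in 15.2%, against 6.02%, and the GC box, with 3 copies in Med13l, in 56.2%, against 32.7%. The TATA box letters, counted anywhere in the window, were as frequent among the members as in the whole table, at 12.4% in both. The match in Gtf2f1 lay 137 to 132 bases before the start. An NF-kB-like motif (GGG, any 2 bases, TTTCC) and an ISRE-like motif (GAAA, any 2 bases, GAAA) were in 0 of the members' promoters, against 1.41% and 2.98% of all. These matches describe the letters in the windows and were not tested against the expression values.

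LPS changed 10 members past the test in HDAC3 -/- cells. After 4 h, 6 members were higher and 4 lower, 9.8% of the 102, close to the background, since 8.87% of all genes passed the same test (limma, Benjamini-Hochberg adjusted p under 0.05 over 19945 genes), 3.69% as higher and 5.18% as lower. Among genes with a mean log2 signal of at least 5 the share was 14.5%. With array weights 14 members were higher and 16 lower, while 22.2% of all genes passed, and without LPS replicate 3, untreated replicate 1 or untreated replicate 3 of the HDAC3 -/- cells 2 were higher and 3 lower. The median difference was 0.01 over the members and 0.02 over all genes. The 6 that rose were the Mediator subunits Med21 (0.99), Med29 (0.88) and Med10 (0.50), the RNA polymerase III subunit Polr3d (0.73), the TFIIF subunit Gtf2f1 (0.58) and the RNA polymerase II subunit Polr2d (0.57). Without both male arrays the call of Med10 was lost (limma adjusted p = 0.051). The 4 that fell were Gtf2i (-1.21), Med22 (-0.89), Polr3gl (-0.83) and the TFIIIC subunit Gtf3c1 (-0.49).

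In HDAC3 +/- cells, 10 members were higher and 24 lower after LPS, 33.3% of the 102, while 25.1% of all genes and 36.8% of genes with a mean log2 signal of at least 5 passed. Of all genes 9.59% were higher and 15.5% lower, and of the brighter genes 11.5% and 25.3%. The share of members was therefore close to that of the brighter genes. The median difference was -0.14 over the members, 0.08 over all genes and -0.14 over the brighter genes. RNA polymerase subunits made up 8 of the 24 that fell and 0 of the 10 that rose. Mediator gave 6 of the 10 that rose: Med21, Med13l, Med13, Med31, Med29 and Med7. Of its 30 members 20.0% rose and 13.3% fell (Med17, Med18, Med22 and Med24). The direction of the split depended on how arrays were scaled: quantile normalization gave 14 higher and 17 lower, cyclic loess 15 higher and 14 lower, and centring each array on its median 7 higher and 23 lower. Over all genes the counts were 1912 higher and 3085 lower as reported, and 1905 and 2294 with cyclic loess. Of the 34 calls 11 were lost with cyclic loess: Gtf2a1l, Gtf2h1, Gtf2ird1, Gtf3c5, Med17, Med24, Polr2a, Polr2b, Polr3k, Taf5 and Taf8. Without both male arrays 5 were lost, namely Gtf2a1l (adjusted p = 0.0939), Gtf2ird1 (0.15), Med13 (0.0905), Polr3k (0.0523) and Taf8 (0.0519), and the median over the members was -0.24. Replicates 2 and 3 of the LPS-treated HDAC3 +/- group had the narrowest spread of all signals, and the part of this spread in the result was not tested beyond these scalings.

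Both LPS responses rest on separate arrays and ran in parallel. Over the 102 members the Pearson correlation of the 2 differences was 0.80 and the Spearman correlation 0.77, given as a description, since members of a complex and arrays of a group are not independent. The standard deviation of the differences over the members was 0.352 in HDAC3 -/- cells and 0.532 in HDAC3 +/- cells. There were 7 members past the test in both genotypes, 70.0% of the HDAC3 -/- calls and 20.6% of the HDAC3 +/- calls, and each moved the same way in both. They were Gtf2f1, Med21 and Med29, which rose, and Gtf2i, Med22, Polr3gl and Gtf3c1, which fell. The overlap and the correlations were not computed over all genes or the brighter genes. Whether they set the members apart was therefore not tested.

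**Figure D1:**
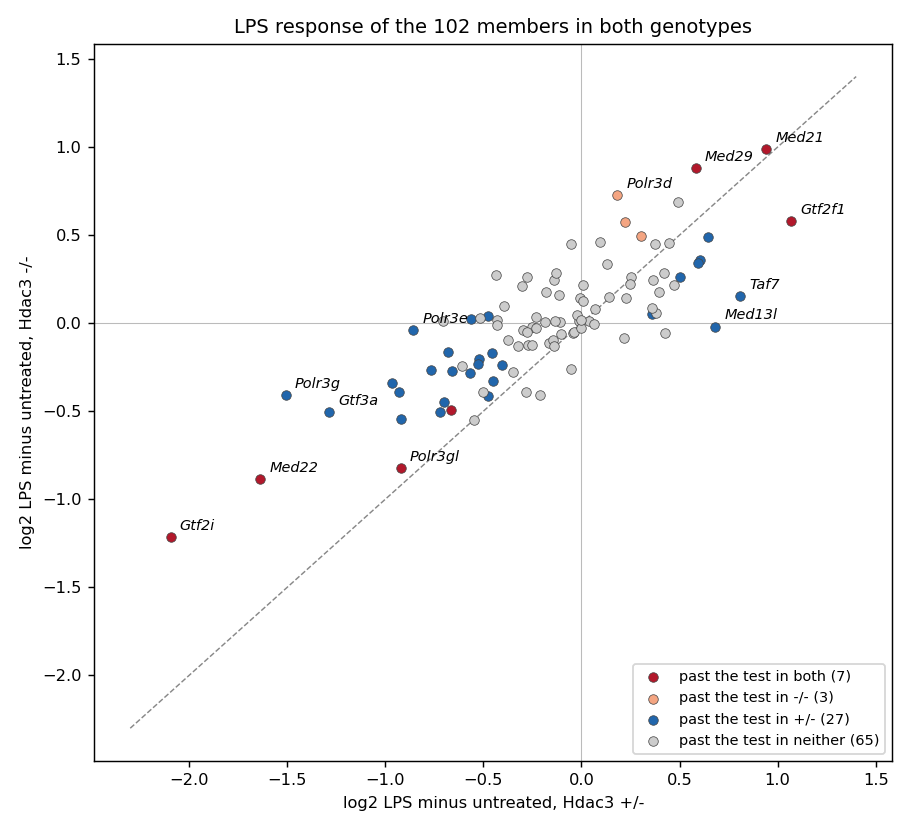
LPS minus untreated log2 difference of each of the 102 members (points) in HDAC3 -/- cells (vertical axis) against HDAC3 +/- cells (horizontal axis), coloured by where it passed adjusted p under 0.05; the dashed line marks equal differences. The 7 members past the test in both genotypes lie in the lower left or upper right, and Polr3g, Gtf3a and Polr3e lie far left with smaller differences on the vertical axis.

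Between the genotypes, untreated cells differed in 1 member. Taf10 was higher in HDAC3 -/- cells by its brighter probe set, but did not pass by its dimmer one. This is 0.98% of the 102, while 2.66% of all genes passed (1.22% higher and 1.44% lower), and 4.33% of the brighter genes. After LPS, 22 members were higher and 5 lower in HDAC3 -/- than in HDAC3 +/- cells, 26.5% of the 102, while 15.7% of all genes passed and 24.3% of genes with a mean log2 signal of at least 5. The share of all genes called higher was 9.69% and called lower 5.99%, and of the brighter genes 15.9% and 8.41%. The median difference after LPS was 0.27 over the members, -0.04 over all genes and 0.10 over the brighter genes. All 3 HDAC3 -/- arrays lay above all 3 HDAC3 +/- arrays for 41 members (17.3% of all genes and 27.5% of the brighter genes did so) and below them for 11 members (14.5% of all genes and of the brighter genes alike). The median member signal was 7.60, 7.39 and 7.69 in HDAC3 -/- arrays after LPS, against 7.44, 7.26 and 7.08 in HDAC3 +/- arrays after LPS. In untreated arrays it was 7.68, 7.65 and 7.51 in HDAC3 -/- cells, against 7.70, 7.40 and 7.67 in HDAC3 +/- cells. The LPS-treated HDAC3 +/- arrays 2 and 3 were thus the lowest of the 12, and the same arrays had the narrowest spread of all signals. With quantile normalization the split was 16 higher and 6 lower, and with cyclic loess 12 higher and 8 lower. Over all genes the split was 1932 higher and 1195 lower as reported, 1630 and 1282 with quantile normalization, and turned to 1266 and 1441 with cyclic loess. Without replicate 3 of the LPS-treated HDAC3 +/- group 9 members were higher and 3 lower (984 and 844 of all genes), and without replicate 3 of the LPS-treated HDAC3 -/- group 8 were higher and 2 lower (910 and 775 of all genes). Without replicate 1 of the LPS-treated HDAC3 -/- group 12 were higher and 2 lower (1170 and 853 of all genes). There were 10 members that passed under every alternative run: Gtf2h1, Gtf3a, Polr1d, Polr1e, Polr3e, Polr3g, Taf10 and Taf9b, which were higher, and Med13l and Taf7, which were lower. No alternative used a dimmer probe set alone. Of this list Polr1d, Polr3e and Taf10 have a second probe set, and none of these passed after LPS (0.09, 0.25 and 0.57). With cyclic loess 11 of the 27 calls were lost: Gtf2e1, Gtf2e2, Gtf2h3, Gtf2h4, Gtf3c5, Med12l, Polr2c, Taf12, Taf1d, Taf3 and Taf6l. Without both male arrays 4 were lost, namely Gtf2f1 (adjusted p = 0.0985), Med12l (0.0946), Med13 (0.0694) and Taf1d (0.057), as was the untreated call of Taf10 (0.0892).

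**Figure D2:**
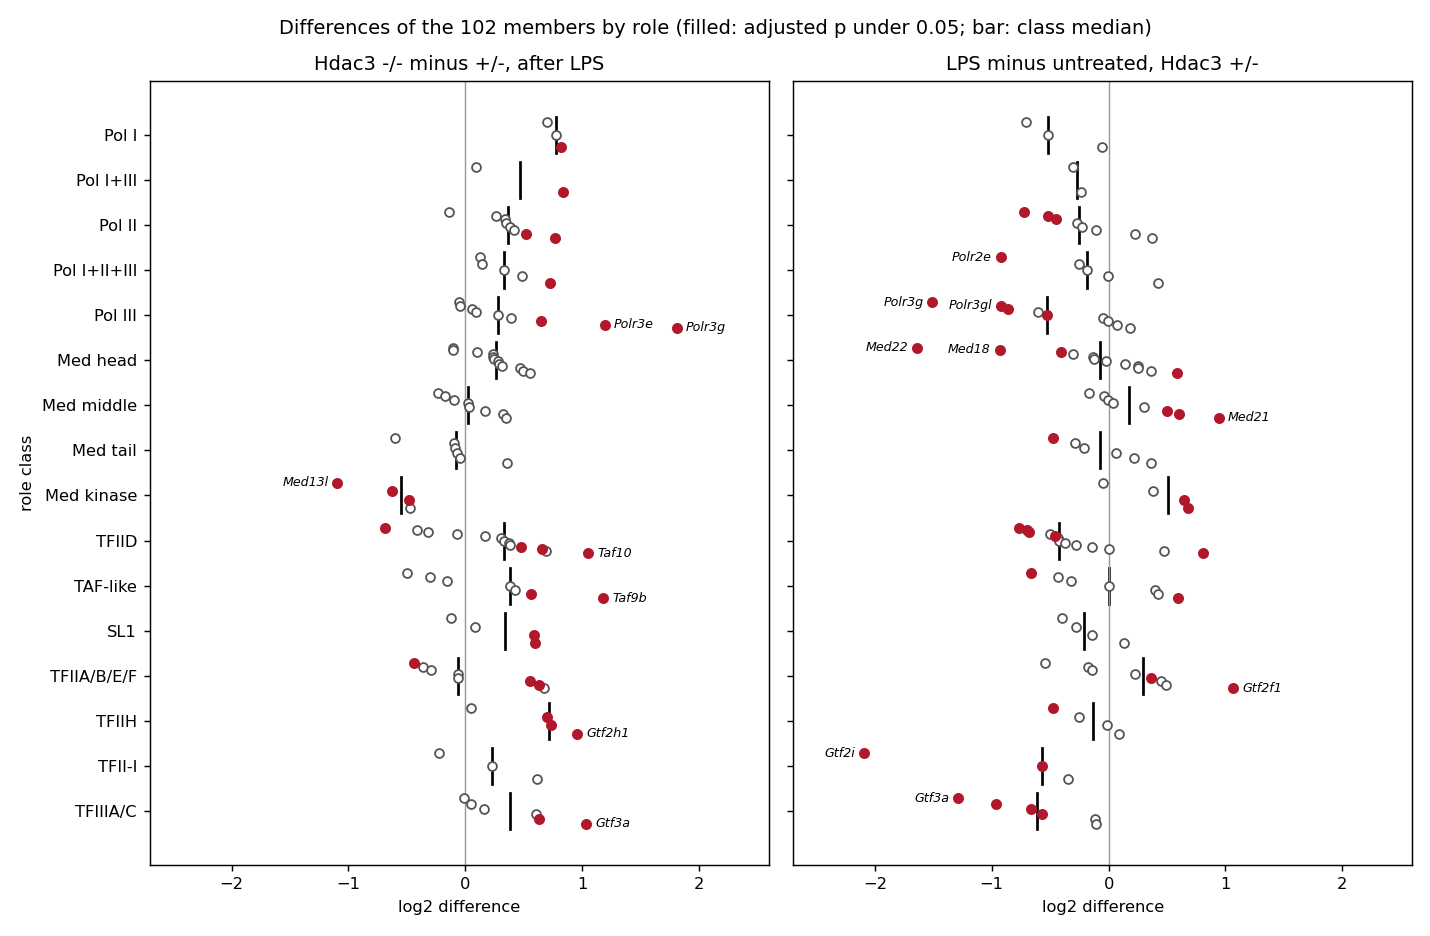
Log2 differences of the 102 members (points) by role class, for HDAC3 -/- minus HDAC3 +/- after LPS (left) and LPS minus untreated in HDAC3 +/- cells (right). Filled points passed adjusted p under 0.05 and black bars are class medians; on the left all 4 Mediator kinase module members lie below 0 and all members of RNA polymerase I, of the subunits shared by polymerases and of TFIIH lie above it.

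Subunits of the 3 polymerases passed in 1 direction between the genotypes. After LPS, 8 of 27 were higher in HDAC3 -/- than in HDAC3 +/- cells and 0 lower, 24 of 27 differences were above 0, and their median was 0.38. That is 29.6% called, while 15.7% of all genes and 24.3% of the brighter genes passed in either direction, and 15.9% of the brighter genes were higher. The direction held under each scaling, with 8 higher and 0 lower (median 0.28) after quantile normalization, 7 and 0 (0.21) with cyclic loess and 7 and 0 (0.40) after centring. In HDAC3 +/- cells 8 of 27 fell after LPS and 0 rose (median -0.25), 29.6% where 25.3% of the brighter genes fell, or 5 fell and 1 rose with cyclic loess (median -0.05), and in HDAC3 -/- cells 2 rose and 1 fell (median -0.03). In untreated cells none of the 27 passed between the genotypes, and 21 differences were above 0.

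The largest difference belonged to Polr3g, a subunit found in an alternative form of RNA polymerase III that is known from human stem cells. Its log2 signal was 5.79, 5.85 and 6.41 in HDAC3 -/- cells after LPS, against 4.32, 4.45 and 3.84 in HDAC3 +/- cells after LPS. In untreated cells it was 6.37, 6.67 and 6.23 in HDAC3 -/- cells, against 5.77, 5.48 and 5.88 in HDAC3 +/- cells. The HDAC3 -/- arrays lay above the HDAC3 +/- arrays in both conditions, and LPS-treated HDAC3 +/- cells stood lowest. All 3 arrays of that lowest group lay below a log2 signal of 5, the limit used here for dim members. The difference was 1.81 ± 0.204 after LPS (SE, limma adjusted p = 5.71e-05), a 3.50-fold higher signal, and 0.71 ± 0.204 untreated (adjusted p = 0.0966). LPS lowered it by a log2 difference of -1.51 in HDAC3 +/- cells (adjusted p = 0.000119), and the difference in HDAC3 -/- cells was -0.41 (adjusted p = 0.294). Its paralogue Polr3gl, the subunit of the common form, gave another picture. Polr3gl had 6.59, 6.51 and 6.96 in HDAC3 -/- cells after LPS and 7.51, 7.40 and 7.62 in untreated HDAC3 -/- cells, and 6.74, 6.91 and 6.57 in HDAC3 +/- cells after LPS and 7.46, 7.56 and 7.97 in untreated HDAC3 +/- cells. LPS lowered Polr3gl in both genotypes, by -0.83 and -0.92, with no overlap of the arrays, and the genotypes differed by -0.06 after LPS (adjusted p = 0.863).

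Polr3e, another subunit of RNA polymerase III, had 7.61, 7.31 and 7.76 in HDAC3 -/- cells after LPS, against 6.75, 6.19 and 6.15 in HDAC3 +/- cells after LPS. In untreated cells it had 7.65, 7.68 and 7.47 in HDAC3 -/- cells, against 7.47, 7.15 and 7.05 in HDAC3 +/- cells. The LPS-treated HDAC3 +/- arrays were the low ones, and the difference after LPS was 1.20 ± 0.183 (adjusted p = 0.000613). A second, dimmer probe set of Polr3e did not give the same size. Its difference was 0.25 after LPS (adjusted p = 0.329) and -0.69 in untreated cells (adjusted p = 0.0331 among all probe sets with 1 symbol). Which of both probe sets measures Polr3e alone was not tested. Both probe sets fell after LPS in HDAC3 +/- cells, by -0.86 and -0.94, and gave -0.04 and 0.01 in HDAC3 -/- cells. Polr3d was higher by 0.65 after LPS, the third subunit of the class past the test, while Polr3k (0.39) and Polr3f (0.28) did not pass. The other 4 members of the class, Polr3a, Polr3b, Polr3c and Polr3gl, differed by -0.06 to 0.09.

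The 3 members that belong to RNA polymerase I alone, which are not all of its subunits, had higher means in HDAC3 -/- cells after LPS. Their median difference was 0.78, and Polr1e passed. Polr1e had 7.32, 7.13 and 7.64 in HDAC3 -/- cells after LPS, against 6.75, 6.61 and 6.28 in HDAC3 +/- cells after LPS. Untreated, it had 6.93, 6.85 and 6.98 in HDAC3 -/- cells, against 6.71, 6.62 and 6.47 in HDAC3 +/- cells. Arrays of the genotypes did not overlap in either condition, and the difference was 0.82 ± 0.159 after LPS (adjusted p = 0.00332) and 0.32 ± 0.159 untreated (adjusted p = 0.451). The catalytic subunits Polr1a and Polr1b differed by 0.78 ± 0.319 and 0.70 ± 0.275 after LPS with overlapping arrays, and did not pass (adjusted p = 0.122 and 0.107).

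Polr1d, shared by RNA polymerases I and III, had 8.53, 8.39 and 8.82 in HDAC3 -/- cells after LPS, against 7.91, 7.56 and 7.76 in HDAC3 +/- cells after LPS. In untreated cells the values were 8.35, 8.21 and 8.56 in HDAC3 -/- cells, against 8.17, 7.69 and 8.28 in HDAC3 +/- cells. The arrays overlapped between genotypes when untreated and were separate after LPS, where the difference was 0.84 ± 0.178 (adjusted p = 0.00598). The second probe set of Polr1d differed by 0.09 after LPS (adjusted p = 0.808). Polr1c, the partner of Polr1d in both polymerases, also differed by 0.09.

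Of the 8 RNA polymerase II subunits, 7 had differences above 0 after LPS and 2 passed: Polr2g (0.77, adjusted p = 0.00836) and Polr2c (0.52, adjusted p = 0.0304). Polr2g had 9.01, 9.0 and 9.31 in HDAC3 -/- cells after LPS, against 8.75, 8.26 and 7.99 in HDAC3 +/- cells after LPS. The 2 largest subunits, which form the catalytic centre, did not differ past the test between genotypes after LPS (Polr2a 0.27, Polr2b -0.14), and both fell after LPS in HDAC3 +/- cells (-0.72 and -0.45). The values in HDAC3 -/- cells were -0.50 and -0.33, which did not pass. Among the 5 subunits shared by all polymerases, Polr2e passed: it was higher by 0.73 in HDAC3 -/- cells after LPS (adjusted p = 0.0194) and fell by 0.92 in HDAC3 +/- cells on LPS (adjusted p = 0.00286). The other 4 differed between the genotypes after LPS by 0.13 to 0.49.

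**Figure D3:**
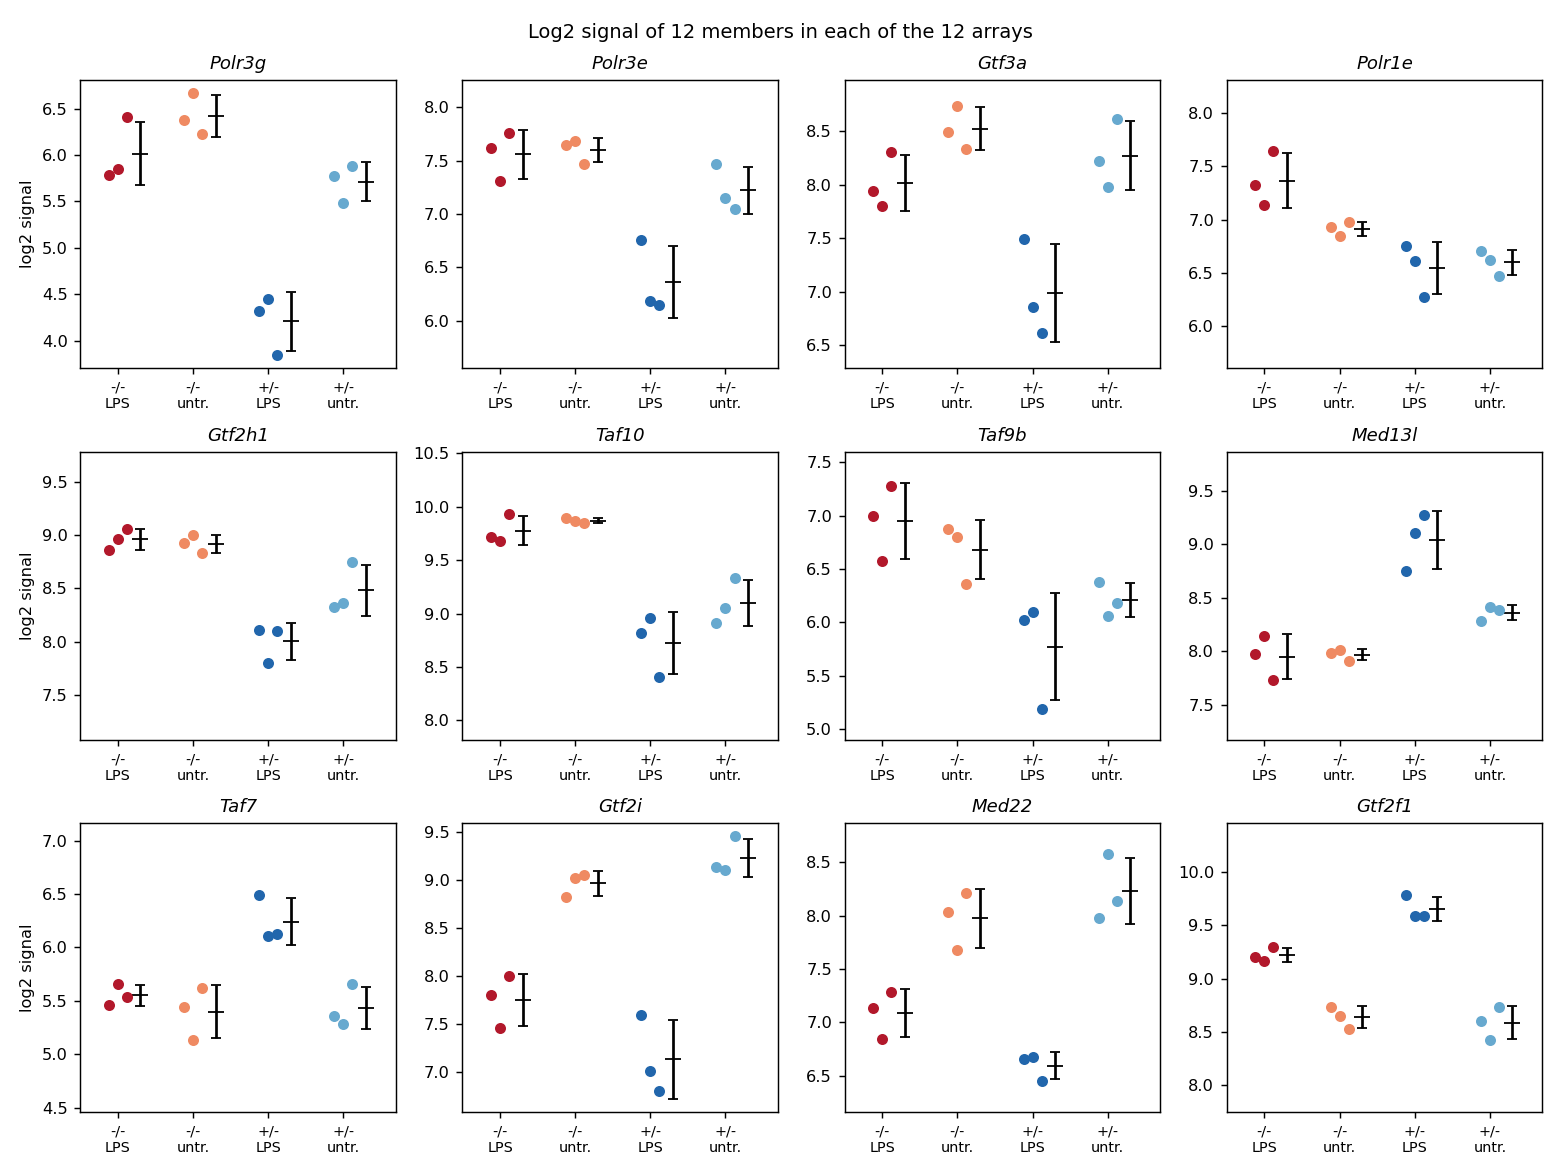
Log2 signal (vertical axes, each panel on its own range) of 12 members in every array (points), with the group mean and SD (bars, n = 3), for HDAC3 -/- and HDAC3 +/- cells after LPS or untreated (untr.). Polr3g, Polr3e and Gtf3a are lowest in the LPS-treated HDAC3 +/- arrays, Med13l and Taf7 are highest there, and Gtf2i and Med22 are lower after LPS in both genotypes.

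As reported, the Mediator calls between the genotypes all lay in 1 module, but with cyclic loess some lay outside it. Of the 30 Mediator subunits 0 were higher and 3 lower in HDAC3 -/- cells after LPS, 10.0% called against 15.7% of all genes and 24.3% of the brighter genes, of which 8.41% were lower. Of the 30 differences 16 were above 0, and the median was 0.03, or -0.07 with quantile normalization and -0.12 with cyclic loess. The 3 lower ones were Med13l, Med13 and Med12l, all from the kinase module, the detachable part that holds the kinase CDK8 or CDK19 and can keep Mediator from the polymerase. The fourth member of the module, Med12, differed by -0.47 (adjusted p = 0.0612), so the class median was -0.55. All 4 stayed below 0 under each scaling, with class medians of -0.57, -0.72 and -0.53, and Med13l passed under every alternative run, which Med13 and Med12l did not. All 4 differences were below 0 in untreated cells too, from -0.47 to -0.16, and none passed there. The class holds Med genes only, and the other genes of the module did not share 1 direction after LPS. Cdk8 was higher in HDAC3 -/- cells by 0.83 and Cdk19 lower (-0.74), while Ccnc gave 0.04. The head, middle and tail modules had 0 of 12, 0 of 8 and 0 of 6 members past the test between genotypes after LPS, with medians of 0.26, 0.03 and -0.08, of which that of the middle module turned below 0 with quantile normalization (-0.10) and cyclic loess (-0.12).

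Med13l had 7.97, 8.15 and 7.73 in HDAC3 -/- cells after LPS, against 8.75, 9.11 and 9.28 in HDAC3 +/- cells after LPS. In untreated cells it had 7.99, 8.01 and 7.91 in HDAC3 -/- cells, against 8.28, 8.41 and 8.39 in HDAC3 +/- cells. The HDAC3 -/- arrays lay below the HDAC3 +/- arrays in both conditions, by -1.09 ± 0.153 after LPS (adjusted p = 0.000304) and -0.39 ± 0.153 untreated (adjusted p = 0.268). LPS raised Med13l by 0.68 in HDAC3 +/- cells (adjusted p = 0.00489), and the difference in HDAC3 -/- cells was -0.02. Its paralogue Med13 had 8.98, 9.27 and 8.65 in HDAC3 -/- cells after LPS, against 9.62, 9.37 and 9.79 in HDAC3 +/- cells after LPS, a difference of -0.63 (adjusted p = 0.0313). Med12l, a dim member, differed by -0.48 (adjusted p = 0.0297) at group means of 4.24 ± 0.124 in HDAC3 -/- and 4.72 ± 0.217 in HDAC3 +/- cells (SD, n = 3).

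Within the head module LPS moved Med22 and Med29 in opposite directions. Med22 had 7.14, 6.84 and 7.28 in HDAC3 -/- cells after LPS and 8.04, 7.68 and 8.21 in untreated HDAC3 -/- cells. HDAC3 +/- cells had 6.65, 6.68 and 6.45 after LPS and 7.98, 8.58 and 8.14 when untreated. LPS-treated arrays lay below untreated ones in both genotypes, by -0.89 ± 0.185 in HDAC3 -/- cells (adjusted p = 0.00758) and -1.64 ± 0.185 in HDAC3 +/- cells (adjusted p = 2.64e-05). Med29 had 8.20, 7.93 and 8.10 after LPS against 7.14, 7.26 and 7.18 untreated in HDAC3 -/- cells, and 7.26, 8.02 and 7.55 after LPS against 7.24, 6.95 and 6.89 untreated in HDAC3 +/- cells. Med29 was thus higher after LPS in all arrays of both genotypes. Med18 and Med17, also of the head, fell in HDAC3 +/- cells (-0.93 and -0.41) and gave -0.39 and -0.24 in HDAC3 -/- cells, where they did not pass.

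The middle module held the member with the largest LPS rise in HDAC3 -/- cells. Med21, which in yeast forms the hinge of Mediator with Med7, had 8.25, 8.74 and 8.51 after LPS and 7.55, 7.54 and 7.45 when untreated in HDAC3 -/- cells. HDAC3 +/- cells had 8.70, 8.35 and 7.95 after LPS and 7.62, 6.79 and 7.77 when untreated. No LPS-treated array overlapped the untreated ones of its genotype, and the differences were 0.99 ± 0.242 in HDAC3 -/- cells (adjusted p = 0.0194) and 0.94 ± 0.242 in HDAC3 +/- cells (adjusted p = 0.0112). Med31 (0.60) and Med7 (0.50) rose in HDAC3 +/- cells, with 0.36 and 0.26 in HDAC3 -/- cells. Med10 rose in HDAC3 -/- cells (0.50), with 0.30 in HDAC3 +/- cells. In the tail module Med24 fell in HDAC3 +/- cells (-0.48), with -0.41 in HDAC3 -/- cells, and the X-linked scaffold subunit Med14 differed between the genotypes by -0.60 after LPS without passing (adjusted p = 0.0648).

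Of the 24 TAFs, 7 were higher and 1 lower in HDAC3 -/- cells after LPS, with a median of 0.35, which is 33.3% called against 15.7% of all genes and 24.3% of the brighter genes. With cyclic loess 3 were higher and 2 lower, with a median of 0.22, where 13.6% of all genes passed. In HDAC3 +/- cells LPS raised 2 and lowered 5 (29.2%, between the 25.1% of all genes and 36.8% of the brighter genes), and in HDAC3 -/- cells it changed 0 past the test, where 11 of 24 differences were above 0. Taf10, which TFIID shares with the SAGA coactivator complex, had 9.72, 9.68 and 9.93 in HDAC3 -/- cells after LPS, against 8.81, 8.95 and 8.40 in HDAC3 +/- cells after LPS. In untreated cells it had 9.90, 9.87 and 9.85 in HDAC3 -/- cells, against 8.91, 9.05 and 9.34 in HDAC3 +/- cells. All 6 HDAC3 -/- arrays lay above all 6 HDAC3 +/- arrays, by 1.05 ± 0.160 after LPS (adjusted p = 0.000591) and 0.77 ± 0.160 untreated (adjusted p = 0.0186). The dimmer probe set of Taf10 passed in neither condition, with 0.57 after LPS (adjusted p = 0.109) and 0.43 untreated (adjusted p = 0.474). Which of both probe sets measures Taf10 alone was not tested, so these calls hold for the brighter one only. The untreated difference no longer passed with the mean of both probe sets, without replicate 1 or 3 of the untreated HDAC3 -/- group, or without replicate 1 of the untreated HDAC3 +/- group.

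Taf9b, an X-linked paralogue of Taf9, had 7.00, 6.57 and 7.28 in HDAC3 -/- cells after LPS, against 6.02, 6.10 and 5.19 in HDAC3 +/- cells after LPS. Untreated, it had 6.87, 6.80 and 6.36 in HDAC3 -/- cells, against 6.38, 6.06 and 6.18 in HDAC3 +/- cells. The genotypes were separate after LPS, where replicate 3 of the HDAC3 +/- cells was lowest, and overlapped when untreated. The difference after LPS was 1.18 ± 0.241 (adjusted p = 0.00482), and 1.30 without both male arrays. Taf9 itself differed by 0.69 (adjusted p = 0.0735). Taf7, a TFIID subunit known to hold back the acetyltransferase activity of TAF1, went the other way. It had 5.46, 5.66 and 5.54 in HDAC3 -/- cells after LPS, against 6.49, 6.11 and 6.13 in HDAC3 +/- cells after LPS, a difference of -0.69 ± 0.163 (adjusted p = 0.0111). The untreated values of Taf7 overlapped (5.44, 5.13 and 5.62 in HDAC3 -/- cells, against 5.36, 5.28 and 5.66 in HDAC3 +/- cells), and LPS raised it in HDAC3 +/- cells by 0.81 (adjusted p = 0.0025).

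Other TFIID subunits changed less. Taf12 (0.66, with overlapping arrays, past the test in 9 of 23 alternatives) and Taf3 (0.47) were higher in HDAC3 -/- cells after LPS, while Taf4 (-0.76), Taf6 (-0.70), Taf5 (-0.68) and Taf8 (-0.46) fell after LPS in HDAC3 +/- cells. Those last 4 gave -0.27, -0.45, -0.17 and -0.17 in HDAC3 -/- cells and did not pass. Taf6l, the counterpart of Taf6 in SAGA, fell by 0.66 in HDAC3 +/- cells after LPS and was higher by 0.56 in HDAC3 -/- cells after LPS, and Taf15, an RNA-binding protein, rose by 0.59 in HDAC3 +/- cells. Of the 4 TAFs of SL1, Taf1a (0.59, adjusted p = 0.0129) and Taf1d (0.59, adjusted p = 0.0347) were higher in HDAC3 -/- cells after LPS. Taf1d had 6 probe sets, read from the same arrays, whose differences ran between 0.27 and 1.08, all above 0. Their limma adjusted p-values among all probe sets with 1 symbol were 0.0363, 0.0243, 0.0118, 0.109, 0.368 and 0.108. The call of Taf1d was lost with cyclic loess and without both male arrays.

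Of the 21 general factors with Gtf symbols, 7 were higher and 1 lower in HDAC3 -/- cells after LPS, with a median of 0.23, which is 38.1% called against 15.7% of all genes and 24.3% of the brighter genes. With cyclic loess 2 were higher and 1 lower, with a median of 0.20, where 13.6% of all genes passed. TFIIH, which opens DNA at the start site and repairs it, had 3 of its 4 members higher (15.9% of the brighter genes were), with a median of 0.71, or 1 of 4 with cyclic loess, with a median of 0.56. Gtf2h1, its p62 subunit, had 8.86, 8.97 and 9.06 in HDAC3 -/- cells after LPS, against 8.11, 7.81 and 8.10 in HDAC3 +/- cells after LPS. In untreated cells it had 8.93, 9.0 and 8.83 in HDAC3 -/- cells, against 8.32, 8.37 and 8.75 in HDAC3 +/- cells. The HDAC3 -/- arrays lay above the HDAC3 +/- arrays in both conditions, by 0.96 ± 0.145 after LPS (adjusted p = 0.000589) and 0.44 ± 0.145 untreated (adjusted p = 0.163). Gtf2h3 (0.73) and Gtf2h4 (0.70) also passed after LPS, and Gtf2h5 gave 0.05. Both subunits of TFIIE were higher after LPS, Gtf2e2 by 0.63 and Gtf2e1 by 0.55, but neither passed with quantile normalization (adjusted p = 0.0577 and 0.0906) or cyclic loess (0.0906 and 0.108), and Gtf2e1 passed in 10 of 23 alternatives.

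TFIIIA and TFIIIC, which serve RNA polymerase III, had 4 of 6 members lower after LPS in HDAC3 +/- cells (median -0.62), where 25.3% of the brighter genes fell, and 1 of 6 in HDAC3 -/- cells (median -0.17). Gtf3a, which is TFIIIA and starts transcription of 5S ribosomal RNA, had 7.94, 7.80 and 8.31 in HDAC3 -/- cells after LPS, against 7.50, 6.85 and 6.61 in HDAC3 +/- cells after LPS. Untreated, it had 8.50, 8.74 and 8.34 in HDAC3 -/- cells, against 8.22, 7.98 and 8.62 in HDAC3 +/- cells. The genotypes overlapped when untreated and not after LPS, where the difference was 1.03 ± 0.230 (adjusted p = 0.00787). LPS lowered Gtf3a in HDAC3 +/- cells by -1.29 ± 0.230 (adjusted p = 0.00105), and the difference in HDAC3 -/- cells was -0.51 (adjusted p = 0.236). The TFIIIC subunit Gtf3c4 had 7.06, 7.02 and 7.07 in HDAC3 -/- cells after LPS and 7.35, 7.60 and 7.23 in untreated ones, and 6.90, 6.01 and 6.42 in HDAC3 +/- cells after LPS and 7.15, 7.43 and 7.65 in untreated ones. Its LPS difference was -0.34 (adjusted p = 0.401) in HDAC3 -/- cells and -0.97 (adjusted p = 0.00302) in HDAC3 +/- cells. Gtf3c5 was higher by 0.63 in HDAC3 -/- cells after LPS and fell by 0.57 in HDAC3 +/- cells with LPS.

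Gtf2i, which encodes TFII-I, a factor that binds initiator elements and E-boxes, had the largest LPS change of all members. It had 7.80, 7.46 and 8.0 in HDAC3 -/- cells after LPS, against 8.82, 9.03 and 9.06 in untreated HDAC3 -/- cells. HDAC3 +/- cells had 7.60, 7.01 and 6.81 after LPS, against 9.14, 9.10 and 9.46 when untreated. LPS-treated and untreated arrays were far apart in both genotypes, with differences of -1.21 ± 0.201 (adjusted p = 0.00153) in HDAC3 -/- cells, a 2.32-fold fall, and -2.09 ± 0.201 (adjusted p = 6.36e-06) in HDAC3 +/- cells, a 4.27-fold fall. Its relative Gtf2ird1 fell by 0.57 in HDAC3 +/- cells. Gtf2f1, the large subunit of TFIIF, rose in both genotypes. It had 9.20, 9.16 and 9.29 after LPS against 8.74, 8.65 and 8.53 untreated in HDAC3 -/- cells, and 9.78, 9.59 and 9.59 after LPS against 8.60, 8.42 and 8.73 untreated in HDAC3 +/- cells. The rise was 0.58 ± 0.127 (adjusted p = 0.0103) in HDAC3 -/- cells and 1.07 ± 0.127 (adjusted p = 4.15e-05) in HDAC3 +/- cells, and Gtf2f1 was lower by -0.44 in HDAC3 -/- than in HDAC3 +/- cells after LPS (adjusted p = 0.0324), a call that held in 15 of 23 alternatives and was lost without both male arrays, after centring each array and with only the arrays compared. The testis-type TFIIA subunit Gtf2a1l, at a mean signal under 5, had a difference of 0.36 in HDAC3 +/- cells on LPS (adjusted p = 0.0499), which passed in 3 of 23 alternatives and was 0.20 with quantile normalization and 0.16 with cyclic loess (adjusted p = 0.415).

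The difference between both LPS responses was tested as an interaction of genotype and LPS. In limma 0 of the 102 members passed, while 1.08% of all genes and 1.7% of the brighter genes did, and 14 members had an unadjusted p under 0.05, against 11.4% of all genes and 15.4% of the brighter genes. The lowest adjusted p-values belonged to Polr3g (1.10 ± 0.289, adjusted p = 0.0953), Med13l (-0.70 ± 0.216, adjusted p = 0.167), Polr3e (0.82 ± 0.258, adjusted p = 0.181) and Gtf2i (0.88 ± 0.284, adjusted p = 0.195). Of the 102 interaction differences 75 were above 0, with a median of 0.16 over the members, -0.02 over all genes and 0.09 over genes with a mean log2 signal of at least 5. A member called in only 1 genotype is therefore not shown to respond differently in the other. With array weights 4 members passed (Gtf2i, Med13l, Polr3e and Polr3g), and without replicate 1 of the LPS-treated HDAC3 +/- group 2 did (Gtf2i and Polr3e).

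**Figure D4:**
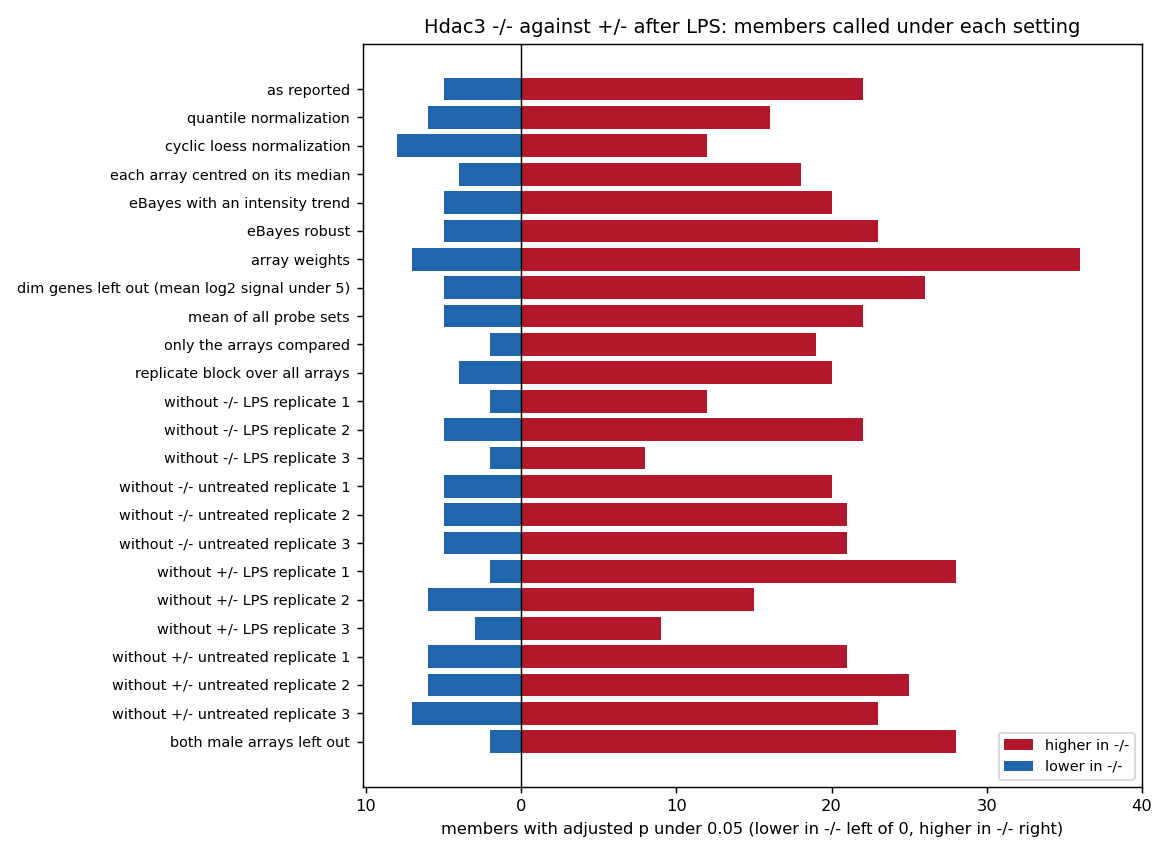
Number of members with adjusted p under 0.05 (horizontal axis) for HDAC3 -/- against HDAC3 +/- after LPS under each processing alternative (rows), with those higher in HDAC3 -/- to the right of 0 and those lower to the left. As reported the counts are 22 and 5, with cyclic loess 12 and 8, and without replicate 3 of the LPS-treated HDAC3 -/- group 8 and 2.

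Other genes of transcription that work with the members were counted from a list of 57, of which 54 were measured. After LPS, 10 were higher and 2 lower in HDAC3 -/- than in HDAC3 +/- cells, with a median of 0.18. That is 22.2% called, while 15.7% of all genes and 24.3% of the brighter genes passed. The 4 largest rises were in Ell (1.20), an elongation factor, Cdk7 (1.13) and Ccnh (0.98), the kinase and cyclin of TFIIH, and Hexim1 (1.04), the inhibitor of the elongation kinase P-TEFb. Cdk19 (-0.74) and Ccnt2 (-0.52) were lower, while Cdk8, the alternative to Cdk19 in the Mediator kinase module, was higher by 0.83. In untreated cells Ell passed (1.02, adjusted p = 0.0014), and no other of the 54 did. LPS raised 5 and lowered 1 in HDAC3 -/- cells, 11.1% called, while 8.87% of all genes and 14.5% of the brighter genes passed. They were Aff1 (1.00), Ell2 (1.23), Cdk7 (0.92), Snapc1 (0.61) and Paf1 (0.49), with Cdk19 at -1.06. In HDAC3 +/- cells LPS raised 4, Aff1 (1.87), Ell2 (1.68), Tcea1 (0.54) and Paf1 (0.46). It lowered 15, most of all Hexim1 (-1.52), Tfb2m (-1.38), Ccnh (-1.25) and Mepce (-1.03). That is 35.2% called, while 25.1% of all genes and 36.8% of the brighter genes passed. Aff1 and Ell2 are subunits of the super elongation complex, and both rose in both genotypes.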

How the data were processed

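RNA of 12 arrays was measured, 3 in each of 4 groups named by the labels' genotype and treatment. The deposited table holds log2 signals, 1 per probe set and array. Per the submitters' processing notes the authors used RMA and the affy package; the sources used here give no version, setting or genome build. Of 28193 probe sets 21648 had 1 gene symbol in the platform annotation, 1313 had several and 5232 had none, and the last 2 kinds were left out. The brightest probe set of each symbol gave 19945 genes, of which 102 were members (114 probe sets, 8 members with several). Some other genes of these families are not reported here. A mean per group was fitted to all arrays with limma 3.58.1 (lmFit, eBayes without trend) in R 4.3.3, and p-values were adjusted by Benjamini-Hochberg over all genes in each of 5 contrasts. Fold changes are 2 to the power of the log2 difference. The code was tested on simulated data. Members, role classes and gene lists were chosen with earlier results of these data known. Named with values are the members with the largest changes past adjusted p 0.05 in each contrast and role class, and per-array values are given for the 9 members with the smallest p between the genotypes, the 5 with the largest remaining LPS changes and their paralogues or partners. Deviations of same-numbered arrays after LPS and untreated had correlations of 0.243, 0.327 and 0.223 in HDAC3 +/- cells and 0.0898, 0.195 and -0.122 in HDAC3 -/- cells. Unlike-numbered arrays reached 0.107 in HDAC3 +/- cells, 0.290 in HDAC3 -/- cells and 0.514 between untreated arrays of both genotypes. Only within HDAC3 +/- cells did same-numbered arrays all exceed the unlike-numbered ones, so a pairing is not shown. Replicate blocks were run as alternatives beside 3 scalings, 2 other eBayes settings, array weights, a filter on dim genes, the mean of all probe sets, separate fits and each array left out. Promoter sequences are RefSeq's on GRCm38.p6. The number of arrays limits the precision.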

Additional observations from a re-analysis of the deposited data

Results flagged for a closer look

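Taf1a, a TAF of SL1, had a higher mean after LPS in HDAC3 -/- cells and a lower one in HDAC3 +/- cells. Treated and untreated arrays did not overlap in either genotype, but neither difference passed the test. Such separation was common. Of 19945 genes, 2509 lay above the untreated arrays in HDAC3 -/- cells and 3711 lay below them in HDAC3 +/- cells. The number of genes that did both was not counted. HDAC3 -/- cells had 7.51, 7.38 and 7.77 after LPS against 7.36, 7.35 and 7.16 untreated, a log2 difference of 0.26 (adjusted p = 0.352). HDAC3 +/- cells had 7.09, 7.07 and 6.72 after LPS against 7.23, 7.19 and 7.30 untreated, a log2 difference of -0.28 (adjusted p = 0.173). The difference between both responses was 0.54 ± 0.204 by limma's interaction test (adjusted p = 0.285), which does not pass over all genes.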

How the results depend on the processing

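Of the alternative values for named calls, 1418 kept their direction and passed, 280 kept their direction but did not pass, and 0 reversed. Passing under every alternative held for 4 of 10 members for the LPS response of HDAC3 -/- cells, 17 of 34 for that of HDAC3 +/- cells, 0 of 1 for the genotypes untreated and 10 of 27 for the genotypes after LPS. No alternative used a dimmer probe set alone. With array weights the counts of members past the test were 30 and 31 for LPS in HDAC3 -/- and HDAC3 +/- cells, 5 and 43 for the genotypes untreated and after LPS, and 4 for the interaction. With only the arrays compared, LPS in HDAC3 +/- cells gave 20. For the genotypes untreated, quantile normalization gave 2, and the mean of all probe sets and the fit without both male arrays (chosen after seeing the data) each gave 0. Without both male arrays 28 members were higher and 2 lower between the genotypes after LPS. Leaving out 1 array gave 5 to 13 (LPS, HDAC3 -/-), 22 to 36 (LPS, HDAC3 +/-), 0 to 1 (genotypes untreated), 10 to 31 (genotypes after LPS) and 0 to 2 (interaction). For LPS in HDAC3 -/- cells, leaving out LPS replicate 3, untreated replicate 1 or untreated replicate 3 of that genotype gave 5 each, and for LPS in HDAC3 +/- cells leaving out its LPS replicate 3 gave 22. With a replicate block over all arrays the counts were 9, 33, 1, 24 and 0 in the same order, and with a block within genotype 10, 36 and 0 for both LPS responses and the interaction; the pairing changed no count by over 1.5 times. The median over the members for LPS in HDAC3 +/- cells was -0.14 as reported and 0.03 with cyclic loess. The split of higher and lower calls for LPS in HDAC3 -/- cells was 6 and 4 as reported, 4 and 4 after centring each array, and 14 and 16 with array weights. Where a count changed with the setting, the cause was not tested. The 5 dim members lie near background, where differences are compressed.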
